A study of Homo sapiens with 6 samples.

Results

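The genes described here encode the protein components of the mitochondrial ribosome. They were taken as every row of the gene table whose name consists of MRPL or MRPS, a number and at most 1 letter from A to C. This gave 78 of 58735 gene rows, 49 with an MRPL name and 29 with an MRPS name. Of these, 77 had enough reads to be tested, among 14046 genes tested in all. MRPS24 was the exception and is described by its counts.

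All libraries came from PANC-1, a long-established cell line from a human pancreatic ductal adenocarcinoma. Its wild-type cells were exposed to conditioned medium (CM) from direct co-cultures with macrophages. In the CM-MLKL group (3 libraries) the PANC-1 cells in the co-culture overexpressed MLKL, the effector that ruptures the plasma membrane in necroptosis. In the CM-Vector group (3 libraries) they carried an empty vector. The labels give PANC-1 as the cell type of every library, so each group is the response of 1 line to medium from 1 kind of donor culture. A time of 72 h is stated, which the sources attach to the co-culture in one place and to the treatment in another. The comparison asks whether medium from MLKL-overexpressing co-cultures changed the mRNA levels of these genes in the recipient cells. Poly(A) RNA was sequenced, so levels of protein, and of assembled ribosomes, were not measured.

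Mitochondrial ribosomes translate the few mRNAs encoded in mitochondrial DNA, all of which specify subunits of the respiratory chain and ATP synthase. Their rRNAs are made inside the organelle, whereas all their proteins are encoded in the nucleus, translated in the cytosol and imported. Some of these proteins descend from bacterial ribosomal proteins and the others exist only in mitochondrial ribosomes. By their place in the human particle, 51 of the genes specify proteins of the large subunit and 26 of the small subunit. The names do not always follow the subunit, since MRPS30 and MRPS18A are proteins of the large one. The remaining gene, MRPS36, was named for the small subunit and is also known as KGD4, an adaptor of the oxoglutarate dehydrogenase complex.

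The libraries held 15838403 to 17885429 counts. CM-Vector replicate 1 stood apart from the rest along the first principal component, which held 48.6% of the variance. Its log2 levels correlated at 0.923 and 0.922 with those of the other CM-Vector libraries, against 0.988 between those 2. Values without it are given beside the medians and genes below that it moved most. All 7 markers of ductal carcinoma lines were tested, KRT8 at a mean of 2089 CPM in CM-MLKL cells and 3387 CPM in CM-Vector cells, although EPCAM was at only 1.97 and 3.65 CPM. Of 14 macrophage markers, 3 had enough reads to be tested. The markers summed to 20.5 to 24.3 CPM in CM-MLKL libraries and 13.2 to 18.8 CPM in CM-Vector libraries. PTPRC and CD86 had 0 counts in every library. LAPTM5 made up most of that sum (log2 fold change 0.98, adjusted p = 0.293 with edgeR, and 0.0401 without CM-Vector replicate 1), while CD14 (-0.88) and ITGAM (-1.38, or -0.56 without that library) had lower estimates in CM-MLKL cells. Each of the 3 had an unadjusted p under 0.05, and so had 4 of the 7 ductal markers, KRT19 (-0.79), KRT8 (-0.70) and EPCAM (-0.89) with lower and VIM (0.74) with higher estimates in CM-MLKL cells, EPCAM and VIM being named after their values were seen. The part of such differences in the results was not tested.

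The promoters of these genes carry letters that the name rule did not use. RefSeq promoter windows (GRCh38.p14) were matched for 69 of the 78 genes, each running from 250 bases before to 50 bases after the start. Both strands were searched for letters bound by regulators of nuclear genes for mitochondria. The YY1 letters AAGATGG were in 33.3% of the 69 windows, against 6.06% of all 27305 windows and 7.68% of the 10155 windows of tested genes. The ETS letters CCGGAAG, which factors such as GABPA recognise, were in 42.0%, against 10.7% of all windows and 19.5% of those of tested genes. The NRF1 letters GCATGCGC were in 8.70%, against 3.27% and 5.66%. A GC box, GGGCGG, was in 60.9%, against 44.6% of all windows but 71.4% of those of tested genes. A match is a run of letters, and binding was not measured.

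The 100 bases before the start are shown for the gene with the highest estimate (MRPL52), the gene with the lowest (MRPL1), a gene whose groups do not overlap (MRPL27) and one of the most abundant (MRPS34). Capitals mark YY1 letters in MRPL52 and ETS letters, on either strand, in MRPL27 and MRPS34. MRPL1 holds none of the 4 kinds of letters in this stretch. The windows lie at chr14:22829787-22829886 (plus strand), chr17:50373185-50373284 (minus strand), chr16:1773135-1773234 (minus strand) and chr4:77862730-77862829 (plus strand) of GRCh38.p14.
MRPL52: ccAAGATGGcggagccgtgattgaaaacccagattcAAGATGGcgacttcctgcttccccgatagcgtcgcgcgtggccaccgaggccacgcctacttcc
MRPL27: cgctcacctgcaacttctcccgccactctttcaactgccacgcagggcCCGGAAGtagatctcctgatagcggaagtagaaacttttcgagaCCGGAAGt
MRPS34: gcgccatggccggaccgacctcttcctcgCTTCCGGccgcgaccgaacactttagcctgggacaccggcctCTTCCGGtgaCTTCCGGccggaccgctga
MRPL1: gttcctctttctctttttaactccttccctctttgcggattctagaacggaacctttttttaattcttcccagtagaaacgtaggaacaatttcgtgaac

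PANC-1 cells expressed nearly the whole set. Levels are given as CPM, read counts scaled to a common library size after TMM normalisation. The tested members had a median of 79.6 CPM over the 6 libraries, against 15.7 CPM for all genes tested, and 73 of them lay between 10 and 300 CPM. Per kilobase of annotated exon, the scale on which genes are compared, the median was 34.2 CPM per kb with quartiles of 13.0 and 58.3.

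MRPS12, which encodes the homologue of the bacterial protein at the decoding centre, stood highest at 256 CPM per kb. It had 515, 620 and 413 CPM in CM-MLKL libraries and 486, 672 and 587 CPM in CM-Vector libraries. The ranges overlap, and the log2 fold change was -0.17 (SE 0.252), or -0.26 without CM-Vector replicate 1. MRPS34, a small subunit protein found only in mitochondria, followed at 251 CPM per kb, then MRPL14 at 207, MRPL15 at 157 and MRPL41 at 123 CPM per kb. Their estimates lay between -0.10 and 0.05, and between -0.40 (MRPS34) and 0.29 (MRPL15) without CM-Vector replicate 1.

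The 5 genes lowest per kb were MRPS24 (0.144 CPM per kb), MRPL53 (0.644), MRPL38 (1.20), MRPS17 (1.34) and MRPL46 (1.997). Each of the 5 shares exon sequence with another annotated gene on the same strand. MRPS24 shares 606 bp with the readthrough gene URGCP-MRPS24, MRPL53 shares 608 bp with CCDC142, and MRPL38 shares 1373 bp with AC087289.3. Such sharing did not always go with a low level. MRPL12 shares 68.2% of its exon length with AC139530.2 on the same strand and stood at 37.1 CPM per kb, above the member median. Among all 78 genes, 16 share exons with a same-strand gene and 29 with a gene on the opposite strand, 41 in all. The reads carry no strand, and how reads falling in shared stretches were counted is not given in the sources used here, so the levels of these genes are uncertain. MRPS24, a small subunit protein at the mRNA entry, had 6, 4 and 13 counts in CM-MLKL libraries and 9, 2 and 6 counts in CM-Vector libraries.

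No gene of the set passed the test. With edgeR's quasi-likelihood test and Benjamini-Hochberg adjustment over all genes, 0 of 77 were called higher in CM-MLKL cells, where 57 of all tested genes (0.406%) were, and 0 were called lower, where 15 of all tested genes (0.107%) were. At those background rates few or no calls would fall in a list of this size. The smallest adjusted p was 0.645. At an unadjusted p under 0.05, 1 member was higher (1.299%, against 3.24% of all genes) and 0 were lower (against 2.98%). DESeq2 and limma-voom also called 0 in either direction, each with 1 member higher and 0 lower at an unadjusted p under 0.05.

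The estimates were narrow around a value just below 0. The median log2 fold change was -0.12, with quartiles of -0.25 and 0.00, against -0.04 with quartiles of -0.29 and 0.17 for all genes tested. Estimates lay below 0 for 57 members (74.0%, against 55.5% of all genes) and above 0 for 20. In 73 members the estimate was within 0.5 of 0. The 95% interval excluded a 2-fold difference in either direction for 62 members and did not for the other 15. The median half-width of the interval was 0.60 on the log2 scale, the narrowest 0.47 and the widest 1.07, so differences smaller than that could not be resolved with 3 libraries per group.

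**Figure D1:**
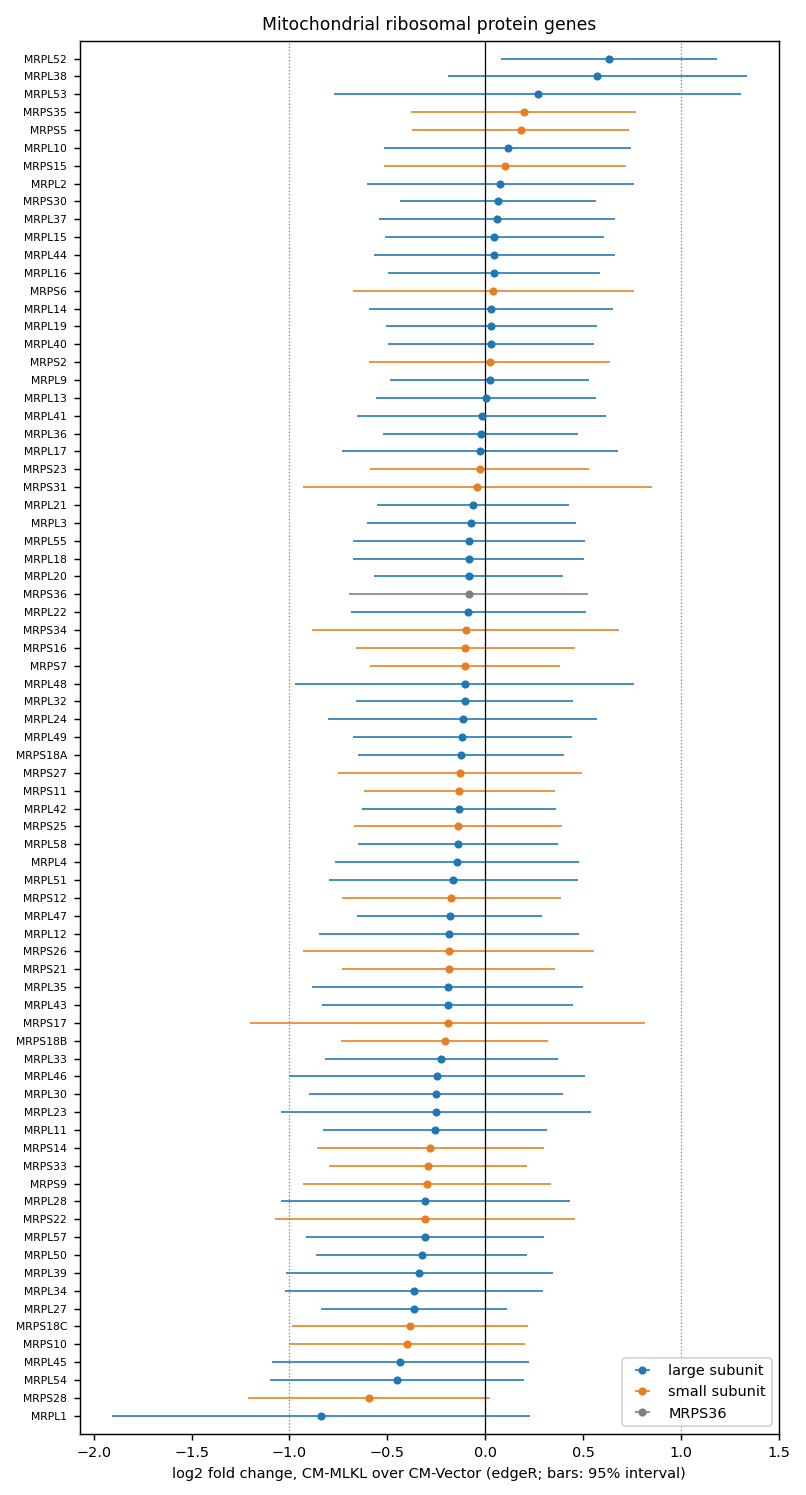
Log2 fold change of CM-MLKL over CM-Vector for the 77 tested genes, sorted from highest to lowest and coloured by subunit. Points are edgeR estimates, bars are 95% intervals, and dotted lines mark a 2-fold difference. Estimates run from 0.63 (MRPL52) to -0.84 (MRPL1), with 57 below 0.

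MRPL52, a large subunit protein found only in mitochondria, had the highest estimate. It had 132.5, 166.8 and 155.4 CPM in CM-MLKL libraries, against 73.2, 109.6 and 110.2 CPM in CM-Vector libraries. Every CM-MLKL library was above every CM-Vector library. The log2 fold change was 0.63 (SE 0.249, unadjusted p = 0.0282, edgeR adjusted p = 0.645). It was the 1 member past an unadjusted p of 0.05, and without CM-Vector replicate 1, its lowest library, the estimate was 0.49 (adjusted p = 0.307).

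MRPL38, a protein of the central protuberance, was the other gene with all CM-MLKL libraries higher. It had 4.94, 6.34 and 4.55 CPM in CM-MLKL libraries and 2.89, 4.11 and 3.63 CPM in CM-Vector libraries. These rest on 83 to 94 counts in CM-MLKL libraries and 59 to 68 counts in CM-Vector libraries, and 37.5% of its exon length is shared with AC087289.3. The log2 fold change was 0.57 (SE 0.345, edgeR adjusted p = 0.999). In all, 2 members (2.60%) were higher in every CM-MLKL library than in every CM-Vector library, against 6.43% of all genes.

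The other upper estimates were smaller than the spread. MRPS35 of the small subunit had an estimate of 0.20, MRPS5 at the mRNA entry 0.18, MRPL53 of the L7/L12 stalk 0.27 and MRPL10 of the same stalk 0.12. MRPL53 had 11 to 18 counts in CM-MLKL libraries and 12 to 18 counts in CM-Vector libraries. With CM-Vector replicate 1 left out, the estimates were 0.23 for MRPS35, 0.04 for MRPS5, 0.39 for MRPL53 and -0.05 for MRPL10. In all 4 genes the groups overlap.

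Lower in every CM-MLKL library were 5 members (6.49%, against 5.5% of all genes). These were MRPS28, MRPL27, MRPL47, MRPL50 and MRPS33, the last 3 of which are named after their values were seen. MRPS28, the homologue of bacterial S1, had 15.9, 11.996 and 19.5 CPM in CM-MLKL libraries, against 24.3, 26.5 and 20.8 CPM in CM-Vector libraries. The gap between CM-MLKL replicate 3 and CM-Vector replicate 3 was narrow, and the log2 fold change was -0.59 (SE 0.280, unadjusted p = 0.0585, edgeR adjusted p = 0.841). AC036214.3, a same-strand gene, shares 35.8% of the exon length of MRPS28.

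MRPL27 lies next to the peptidyl transferase centre, where peptide bonds are made. It had 114, 105 and 107 CPM in CM-MLKL libraries and 143, 148 and 128 CPM in CM-Vector libraries. The CM-MLKL libraries lay close together and below all CM-Vector libraries, with a log2 fold change of -0.36 (SE 0.215, edgeR adjusted p = 0.989). MRPL47, MRPL50 and MRPS33 had estimates of -0.18, -0.32 and -0.29.

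MRPL1, the protein of the L1 stalk past which spent tRNAs leave, had the lowest estimate, and it rested on 1 library. It had 10.7, 8.15 and 13.5 CPM in CM-MLKL libraries, against 36.0, 13.2 and 8.55 CPM in CM-Vector libraries. CM-Vector replicate 1 was far above the rest, and the other 2 CM-Vector libraries lay within the CM-MLKL range. The log2 fold change of -0.84 (SE 0.483, edgeR adjusted p = 0.974) became 0.01 without that library.

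**Figure D2:**
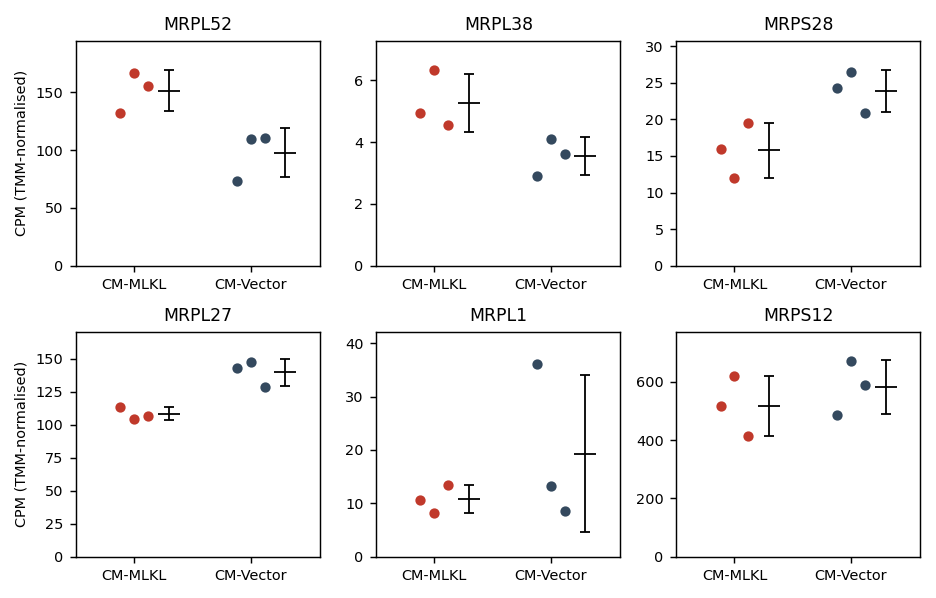
CPM per library (points, replicates 1 to 3 from left to right) with the mean and SD (bars, n = 3) for CM-MLKL and CM-Vector in 6 genes, each panel with its own axis from 0. The groups do not overlap in MRPL52, MRPL38, MRPS28 and MRPL27. In MRPL1 the CM-Vector mean of 19.3 CPM is set by 1 library at 36.0 CPM, and in MRPS12 the groups overlap.

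MRPL54 at the L7/L12 stalk, MRPS10 in the head and MRPL45 at the exit tunnel completed the lower end. MRPL54 had 49.3, 83.1 and 40.5 CPM in CM-MLKL libraries and 70.3, 81.3 and 84.8 CPM in CM-Vector libraries. CM-MLKL replicate 2 was as high as the CM-Vector libraries. MRPS10 had 147, 90.7 and 140 CPM in CM-MLKL libraries and 129, 200 and 168 CPM in CM-Vector libraries, and here CM-MLKL replicate 2 was the low one. MRPL45, which holds the particle at the inner membrane, was at 51.7, 25.3 and 45.0 CPM in CM-MLKL libraries and 47.0, 59.6 and 58.2 CPM in CM-Vector libraries. Their log2 fold changes were -0.45, -0.40 and -0.43, each with an edgeR adjusted p of 0.999.

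Arranged by their place in the particle, the genes gave similar medians. The large subunit had a median log2 fold change of -0.11 (36 below 0, 15 above) and the small subunit -0.14 (20 below 0, 5 above). Homologues of bacterial proteins had a median of -0.11 (45 genes) and proteins found only in mitochondria -0.13 (31 genes). MRPS36 was at -0.09. Leaving out CM-Vector replicate 1 gave medians of -0.14 for the large and -0.24 for the small subunit, -0.15 for bacterial homologues and -0.19 for proteins found only in mitochondria, and MRPS36 was at 0.05.

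Sites within the subunits are those assigned here, and some genes, MRPL4 among them, could be placed at another. Each site's median therefore holds for this assignment only. The 5 genes assigned to the peptidyl transferase centre had a median of -0.07, with MRPL27 lowest and MRPL4 at -0.14. The 5 genes of the L7/L12 stalk, which recruits translation factors, had a median of -0.19, MRPL11 standing at -0.26 (SE 0.258). The 5 genes of the central protuberance, which faces the small subunit, had a median of -0.08, and MRPL46 was at -0.25. The 6 genes of the exit tunnel, through which the nascent chain leaves, had a median of -0.18, with MRPL39 at -0.34. The 6 genes assigned here to the small subunit's head were all below 0, where 74.0% of all tested members were. Their median was -0.29, and 0 of them had an unadjusted p under 0.05 with edgeR. MRPS35 (0.20) and MRPS24 (not tested) were assigned elsewhere, so the direction holds for this assignment only. Without CM-Vector replicate 1 the median was -0.15 for the peptidyl transferase centre, -0.32 for the L7/L12 stalk, -0.32 for the exit tunnel and -0.31 for the head, and that of the central protuberance turned to 0.06. MRPL4 was then at -0.32 and MRPL11 at -0.41.

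Single libraries stood further apart than the group means did. Together the 78 genes took 0.758%, 0.710% and 0.718% of counts in CM-MLKL libraries, against 0.724%, 0.840% and 0.795% in CM-Vector libraries. Their summed level was 7457, 7580 and 7005 CPM in CM-MLKL libraries and 6270, 9080 and 8350 CPM in CM-Vector libraries. The means were 7347 ± 303 CPM in CM-MLKL and 7900 ± 1458 CPM in CM-Vector (SD, n = 3 each). By share of counts the lowest library was CM-MLKL replicate 2 and the highest CM-Vector replicate 2. By summed CPM, CM-Vector held both the lowest and the highest library, with the CM-MLKL libraries between them.

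CM-Vector replicate 2 was the highest of the 6 libraries for 39 of the 77 genes (50.6%, against 14.3% of all genes tested) and the lowest for 0. CM-MLKL replicate 2 was the lowest for 28 genes (36.4%, against 25.6% of all genes) and CM-Vector replicate 1 for 27 (35.1%, against 27.7%), shares nearer to those of all genes. Relative to each gene's mean over the libraries, the member median was 0.00, -0.07 and -0.05 in CM-MLKL libraries and -0.15, 0.26 and 0.09 in CM-Vector libraries on the log2 scale. The median of all genes was between -0.04 and 0.04 in each library. The median SD of log2 CPM among replicates was 0.267 for members in CM-MLKL and 0.295 in CM-Vector, against 0.334 and 0.395 for all genes.

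**Figure D3:**
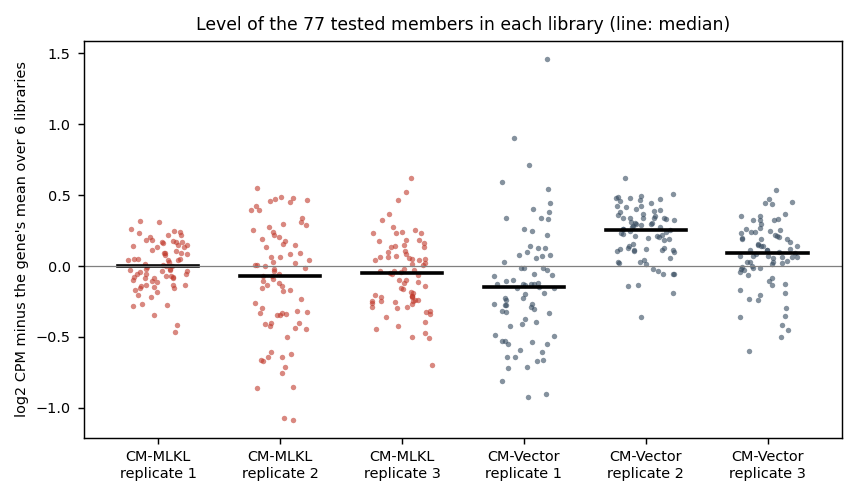
Log2 CPM of each of the 77 tested genes minus its own mean over the 6 libraries, by library, CM-MLKL in red and CM-Vector in dark blue. Each point is a gene and the line is the median. The median is highest in CM-Vector replicate 2 (0.26) and lowest in CM-Vector replicate 1 (-0.15), with the 3 CM-MLKL libraries between them.

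The lean below 0 moved with these libraries. Without CM-Vector replicate 2 the median log2 fold change was -0.02, against -0.04 for all genes. Without CM-Vector replicate 1 it was -0.15, against 0.05 for all genes, and 61 of 77 members lay below 0. In that comparison 3 members had an unadjusted p under 0.05, against 15.02% of all genes, and the smallest edgeR adjusted p among members was 0.203. They were MRPL52 (0.49), MRPL34 (-0.60) and MRPL28 (-0.57), the last 2 named after their values were seen. The sign turned in 18 members, 7 to above 0 and 11 to below 0.

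Besides MRPL1, the largest turns were in MRPS17, MRPL46 and MRPS31. MRPS17, a small subunit homologue of a bacterial protein, had 2.70, 2.76 and 2.68 CPM in CM-MLKL libraries and 5.24, 2.12 and 1.91 CPM in CM-Vector libraries. Its log2 fold change was -0.19 with all libraries and 0.46 without CM-Vector replicate 1, its highest. The estimate of MRPL46 was -0.25 with all libraries and 0.17 without that one, and the estimate of MRPS31, a head protein, was -0.04 and 0.32. In each of the 4 genes CM-Vector replicate 1 was the highest CM-Vector library.

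Within a library, the level of a member was correlated with the GC content of its transcript. Across the 77 genes, Pearson's r between GC content and log2 CPM relative to the gene's mean was -0.34, 0.63 and -0.52 in CM-MLKL libraries and -0.47, 0.24 and 0.40 in CM-Vector libraries. Across all 13977 tested genes with a GC value, r was -0.17, 0.60 and -0.52 in CM-MLKL libraries and -0.38, 0.22 and 0.33 in CM-Vector libraries. The points of a panel share 1 library, and genes are not independent replicates. The 28 members lowest in CM-MLKL replicate 2 had a median GC content of 42.3%, and the 13 highest there 55.5%. With offsets for GC content and length the median log2 fold change was -0.09 and 0 members were called. The part of GC content in the results was not tested beyond that fit.

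**Figure D4:**
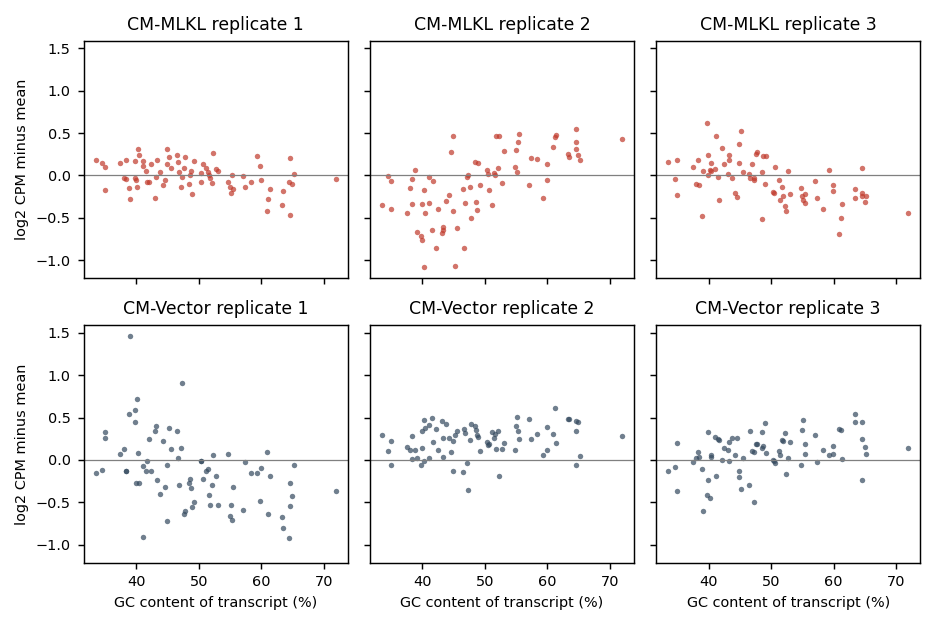
Log2 CPM minus the gene's mean over the 6 libraries (vertical axis) against GC content of the transcript in percent (horizontal axis) for the 77 tested genes, 1 panel per library, CM-MLKL above and CM-Vector below. GC-rich members sit high in CM-MLKL replicate 2 (r = 0.63) and low in CM-MLKL replicate 3 (r = -0.52) and CM-Vector replicate 1 (r = -0.47).

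The genes that act with the mitochondrial ribosome were likewise without a call in the comparison of all 6 libraries, whether with edgeR, DESeq2 or limma-voom. The 6 ribosomal proteins under other names had a median log2 fold change of -0.08, CHCHD1 standing at -0.26 and PTCD3 at -0.36. Without CM-Vector replicate 1 the median was -0.12, CHCHD1 was at -0.38 and PTCD3 at 0.07. The 32 assembly factors had a median of -0.06 (-0.10 without that library) and 1 unadjusted p under 0.05. That gene was DDX28, an RNA helicase of large subunit assembly, with 2.53, 2.29 and 1.59 CPM in CM-MLKL libraries and 13.5, 2.84 and 1.84 CPM in CM-Vector libraries. Its estimate of -1.51 (edgeR adjusted p = 0.788) became -0.11 without CM-Vector replicate 1, the 1 high library. MRM1, which methylates the large rRNA, was at -0.49.

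The 20 mitochondrial translation factors had a median of -0.21, with 17 below 0, and a median of -0.08 without CM-Vector replicate 1. PDF, the peptide deformylase, was at -0.96 and -0.33 without CM-Vector replicate 1, and SLIRP, which stabilises mitochondrial mRNAs, at -0.43. The 24 genes of mitochondrial transcription and RNA processing had a median of -0.15, MTERF2 being at -0.79 and FASTKD5 at -0.85. That median was -0.05 without CM-Vector replicate 1, with MTERF2 at -0.65 and FASTKD5 at -0.33. The 19 mitochondrial tRNA synthetases had a median of 0.00, MARS2 at 0.60 and GARS, which serves cytosol and mitochondria, at 0.30. Without that library the median was 0.09, MARS2 was at 0.72 and GARS at 0.59. With edgeR, 0 genes of these 3 lists had an unadjusted p under 0.05.

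Of 18 regulators of nuclear genes for mitochondria, 17 were tested, with a median of -0.20, or -0.09 without CM-Vector replicate 1. ATF4, a transcription factor of the integrated stress response, had 389, 382 and 391 CPM in CM-MLKL libraries, against 547, 571 and 548 CPM in CM-Vector libraries. The libraries of each group lay close together and apart from the other group. The log2 fold change was -0.52 (SE 0.214, unadjusted p = 0.0347, edgeR adjusted p = 0.701), and -0.50 without CM-Vector replicate 1. ATF5, an inducer of the mitochondrial unfolded protein response, was at -0.61 with all libraries and -0.23 without that one.

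The 15 mitochondrially encoded genes, which include the templates and rRNAs of these ribosomes, depended on CM-Vector replicate 1. Their median log2 fold change was -0.03 with all libraries and 0.74 without it, when 3 of them, MT-ND1, MT-ND3 and MT-CO3, were called higher. In that comparison 15.02% of all genes had an unadjusted p under 0.05 with edgeR. The 3 calls are at an adjusted p under 0.05, so that share is not their background. Their background is the number of all genes called higher without that library, given below with the processing alternatives. More genes were called in that comparison over all genes than when any other library was left out. MT-ND1 had 397, 273 and 268 CPM in CM-MLKL libraries and 1120, 132 and 145 CPM in CM-Vector libraries. Its estimate was -0.58 with all libraries and 1.21 without CM-Vector replicate 1 (edgeR adjusted p = 0.0339), and MT-ATP6 was at 0.38 and 0.92 (adjusted p = 0.0881). The 2 rRNAs, MT-RNR1 and MT-RNR2, were at -0.29 and -0.27 without it.

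The proteins of the cytosolic ribosome, which makes the mitochondrial ones, gave a median log2 fold change of -0.27 over 83 tested genes of 86, with 77 below 0, 0 called and 0 at an unadjusted p under 0.05 with edgeR. The median was -0.43 without CM-Vector replicate 1. By library their median level relative to the mean was -0.12, -0.03 and -0.22 in CM-MLKL libraries and -0.35, 0.40 and 0.30 in CM-Vector libraries. As with the mitochondrial set, CM-Vector replicate 1 was lowest and CM-Vector replicate 2 highest.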

How the data were processed

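RNA was isolated with Trizol, selected on its poly(A) tail and made into libraries with an unstranded NEBNext Ultra kit. The deposited values are raw counts of reads for each gene, without normalisation. The study's methods name StringTie for reference-based assembly of mapped reads. Which aligner, counting tool and genome build produced them is not given in the sources used here. Names, exons, GC content and lengths came from GENCODE 29 (GRCh38), matched by name.

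Genes were kept with filterByExpr (minimum count 10, minimum total 15) and tested with edgeR 4.0.16 (TMM, quasi-likelihood test, group term only, Benjamini-Hochberg threshold 0.05) in R 4.3.3. The labels do not say whether replicates are separate cultures, whereas the paper's methods speak of sequencing in 3 independent experiments. The p-values measure the spread between these libraries. DESeq2 1.42.0, limma 3.58.1 (voom), other scalings and filters, GC content and length offsets, and leaving out each library were alternatives. No 2 libraries agreed within sampling noise (lowest chi-square per degree of freedom 11.1).

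Named genes were the 6 members with the smallest p in each direction, the 5 highest and 5 lowest per kb, up to 2 per functional site, from each other list 2 by smallest p, and the 4 largest turns without CM-Vector replicate 1. Members and lists were chosen with earlier results of these data known.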

Additional observations from a re-analysis of the deposited data

How the results depend on the processing

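In the 14 alternatives, 0 members were called in either direction, and the member median log2 fold change stayed below 0, between -0.15 and -0.02 when 1 library was left out. Counts over all genes moved more. They were 138 higher and 59 lower with DESeq2's test, 121 and 40 with GC content and length offsets, 149 and 100 without a filter on low counts, and 112 and 43 with the replicate number as a block. Leaving out 1 library gave 14 to 206 higher and 4 to 108 lower, the largest counts being without CM-Vector replicate 1 and the smallest without CM-MLKL replicate 2 (4 lower also without CM-MLKL replicate 1). The replicate block called 0 members and gave a member median of -0.11. Deviations from the group means correlated at 0.171, 0.168 and -0.305 between same-numbered libraries, and at up to 0.357 between differently numbered ones. With 3 libraries per group, these values cannot decide whether same-numbered libraries were paired.

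Of 637 values for the 46 genes named by rule or after the fact, 602 kept their direction and side of the threshold. Another 34 turned sign, and 1 (LAPTM5, above) kept its sign and gained a call. MT-ND1 without CM-Vector replicate 1, counted among the turns, was also called there. Apart from leaving out libraries, the turns were MRPL41 at 0.0018 (DESeq2 size factors), 0.013 (DESeq2's test) and 0.13 (GC content and length offsets), MRPL15 at -0.0024 (library size only), MRPS34 at 0.011 (limma-voom), 0.0072 (replicate block) and 0.097 (GC content and length offsets), MRPS31 at 0.0042 (GC content and length offsets), and MT-ND1 at 0.15 (limma-voom) and 0.19 (replicate block). Without 1 library at a time the ranges were -0.11 to 0.26 for MRPL10, -1.19 to 0.01 for MRPL1, -0.44 to 0.46 for MRPS17, -0.48 to 0.17 for MRPL46, -0.25 to 0.19 for MRPL14, -0.44 to 0.32 for MRPS31, -0.69 to 0.074 for PTCD3, -1.01 to 1.21 for MT-ND1, -0.27 to 0.17 for MRPL41, -0.078 to 0.29 for MRPL15, -0.40 to 0.12 for MRPS34, -0.32 to 0.080 for MRPL4 and -0.011 to 0.38 for MRPS35. The causes were not tested. Counts of under 20 per library limit MRPS24 and MRPL53.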

Other observations

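Pseudogenes named after these genes held few reads. The 75 rows with such names had 116, 86 and 161 counts in CM-MLKL libraries and 197, 151 and 133 counts in CM-Vector libraries, against 112467 to 129744 and 127960 to 150227 counts for the 78 genes themselves.

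MRPS24 and its readthrough gene URGCP-MRPS24 were both close to 0. The readthrough gene had 1, 0 and 0 counts in CM-MLKL libraries and 1, 2 and 0 counts in CM-Vector libraries, and MRPS24 had at most 13 in any library. MRPL53 had 11 to 18 counts in CM-MLKL libraries and 12 to 18 in CM-Vector libraries. CCDC142, which shares 45.2% of the exon length of MRPL53, had 35 to 71 and 39 to 110.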
